A study of Danio rerio with 14 samples.

Results

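Embryos of irradiated zebrafish parents were compared between a brood taken 1 year after the exposure and a brood taken 1 month after it. The parents were AB wild type fish that had received gamma radiation at 8.7 mGy/h while their gametes formed, and per the design text the same fish bred on both occasions. The labels call the earlier brood 0 yr and the later brood 1 yr. Each library held poly(A) RNA from 100 F1 embryos at 5.5 hours after fertilization (hpf), read in pairs without strand information, so genes on opposite strands of a shared stretch cannot be separated. Of the 14 libraries in the series, 6 come from these broods, with 3 in each. Unexposed AB parents, kept as controls, gave 2 libraries at 0 yr, after 1 sample was lost in extraction, and 3 at 1 yr. The tables listed 13263 genes at 0 yr and 12502 at 1 yr, and the 12171 genes in both were compared.

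At this age a zebrafish embryo is passing from blastula to gastrula. The egg carries RNA laid down by the mother, and the pluripotency factors Pou5f3, Nanog and SoxB1 switch on the embryo's own genes while much of the maternal RNA is cleared. Nodal, BMP, FGF and Wnt signals then divide the deep cells into mesendoderm and ectoderm, beneath a keratin-rich epithelium called the enveloping layer and above the yolk syncytial layer, which feeds the embryo from the yolk. Germ plasm, a maternal deposit of RNA and protein, marks the future germ cells.

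Levels are in RPM, reads scaled to the size of the library but not to gene length, as the authors gave them for each group, and values of single libraries are not used here. A brood difference is the log2 RPM at 1 yr minus that at 0 yr. It has no test and no replicate check, and a gene was called where its levels differed at least 2-fold. The broods come from separately deposited tables, so levels are set across tables, whose listed genes summed to 484878 to 494359 RPM per group. The smallest depth that fits the values, as a geometric mean over a group's libraries, was 25.7 M reads (megareads) at 0 yr and 23.6 M at 1 yr in the exposed broods, against 27.7 and 22.6 M in the controls. Counting error alone gave a difference a standard error of 0.24 at 1 RPM, 0.11 at 5 RPM, 0.075 at 10 RPM and 0.024 at 100 RPM. The breeding occasion, the age of the parents and the time since exposure change together between broods, and their effects cannot be told apart.

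All 4 groups carried the markers of a whole gastrula. Summed over the markers of each kind, the exposed broods went from 167 RPM at 0 yr to 443 RPM at 1 yr for mesendoderm (5 of 6 markers listed, since ta and tbxta name the same gene), from 206 to 434 RPM for ectoderm and from 1229 to 3022 RPM for enveloping layer. The sums were closer for the yolk syncytial layer, at 97.9 and 121 RPM, and for germ cells, at 135 and 205 RPM. The germ cell sum was higher through ddx4 alone (106 and 187 RPM), since nanos3 stood at 12.4 and 8.05 RPM and dnd1 at 16.8 and 10.2 RPM. The control sums were also higher at 1 yr for mesendoderm (144 and 364 RPM), ectoderm (187 and 382 RPM), enveloping layer (1091 and 2414 RPM) and germ cells (150 and 189 RPM), but not for the yolk syncytial layer (94.0 and 88.9 RPM). None of the markers of muscle, blood, lens or liver was listed in either table. Of 3 adult gonad markers only the steroid enzyme gene cyp17a1 was listed, at 39.1 RPM at 0 yr and 16.1 RPM at 1 yr in the exposed broods and at 41.0 and 26.5 RPM in the controls. Of 3 sperm markers only odf3b was listed, in the 0 yr table alone at 1.46 RPM. In these whole embryos, fewer cells of a type and less RNA per cell cannot be told apart, and the part of such shifts in the results below was not tested.

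In the later brood of the exposed parents, the lists with the highest medians were those of the yolk syncytial layer and the enveloping layer, and those with the lowest were germ plasm, lipid synthesis, maternal and clock genes. Lists of patterning genes also had medians above that of all genes, though most of their members stayed under 2-fold. Of 12158 genes with a geometric mean of at least 1 RPM over the 4 groups (13 joined genes lay under it), 496 (4.08%) were at least 2-fold higher at 1 yr and 1852 (15.2%) were at least 2-fold lower. The median over all genes was -0.33 and the SD 0.72, so gene lists are read against that median. Called genes were 21.1% higher and the rest lower. Centred on the genes of at least 10 RPM, which adds 0.24 to every difference, 44.9% of calls were higher, 768 against 944.

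**Figure D1:**
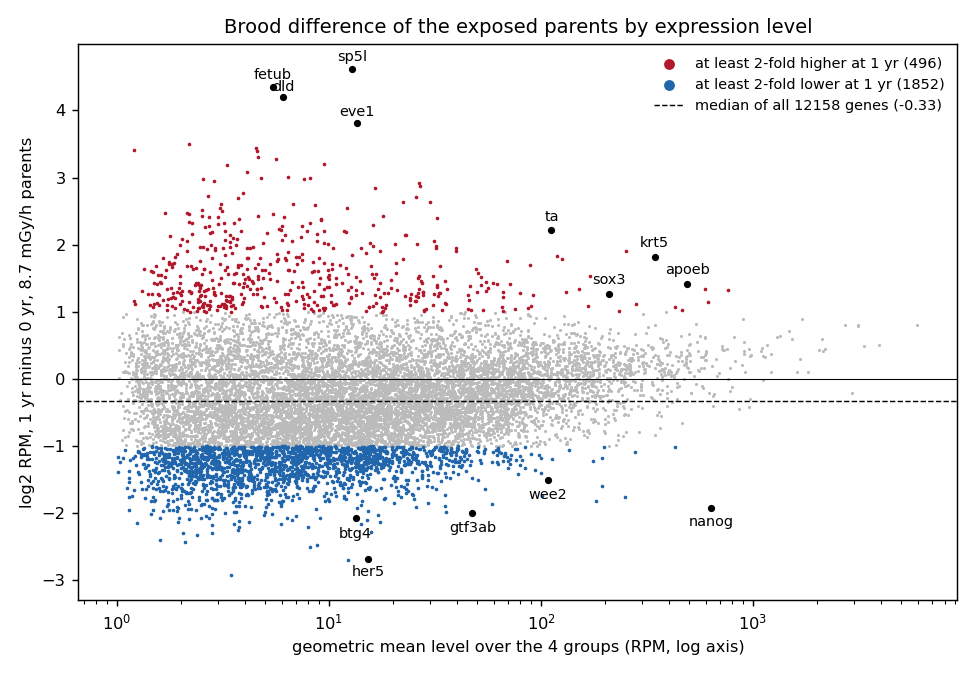
Brood difference of the exposed parents (vertical axis, log2 RPM at 1 yr minus 0 yr) against the geometric mean level over the 4 groups (horizontal log axis, RPM), 1 point per gene and no error bars because each group has 1 value. Red points are the 496 genes at least 2-fold higher at 1 yr, blue points the 1852 genes at least 2-fold lower, and the dashed line is the median of all genes at -0.33.

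The share of genes at least 2-fold lower depended on level. It was 17.7% of 1042 genes between 1 and 2 RPM, highest at 23.6% of 2581 genes between 2 and 5 RPM, 21.3% between 5 and 10 RPM, 16.8% between 10 and 20 RPM and 1.63% of 981 genes at 100 RPM or more. In these bins the median difference was -0.26, -0.49, -0.52, -0.45 and 0.09. The plot of differences by level shows this as a blue field that thins toward the right. The share at least 2-fold higher fell with level as well. It was 5.28% between 1 and 2 RPM, 7.13% between 2 and 5 RPM and 1.83% at 100 RPM or more.

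The 4 largest differences upward among the named genes were those of sp5l, the plasma protein gene fetub, dld and eve1, and 3 of these 4 are zygotic patterning genes. The Wnt-responsive transcription factor gene sp5l stood at 3.33 RPM at 0 yr and 81.6 RPM at 1 yr in the exposed broods, and at 1.66 and 61.3 RPM in the controls. Its brood difference was 4.61 after exposure and 5.2 in controls, and both later broods lay far above both earlier ones. The Notch ligand gene dld stood at 1.81 and 33.2 RPM in the exposed broods and at 1.47 and 15.5 RPM in the controls. The homeobox gene eve1, active in ventral and posterior cells, stood at 4.72 and 66.5 RPM, with 2.69 and 40.1 RPM in controls. The sp5l gene lies on chromosome 23 (28096555 to 28099402), dld on chromosome 13 (5947112 to 5953343) and eve1 on chromosome 3 (23511387 to 23513282), as the tables place them.

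Early zygotic genes, those transcribed soonest after genome activation, had 4 of 24 (16.7%) at least 2-fold higher and 3 (12.5%) lower, with a median of 0.25. The controls had 4 higher and 4 lower, with a median of 0.07. Over all genes 4.08% were higher and 15.2% lower in the exposed broods, and 3.08% and 5.35% in the controls. Genes of the mesendoderm had calls on both sides, but only their higher share stood above that of all genes. Of 22 measured factors 4 (18.2%) were at least 2-fold higher and 3 (13.6%) at least 2-fold lower, with a median of 0.26. The controls had 5 higher and 2 lower, with a median of 0.31. The notochord and tail T-box gene ta stood at 59.8 RPM at 0 yr and 280 RPM at 1 yr in the exposed broods, and at 44.4 and 211 RPM in controls. The endoderm factor gene sox32 stood at 23.7 and 60.0 RPM, and gata5, which acts in heart and endoderm, at 26.6 and 57.9 RPM. On the lower side, her5, a hairy-related repressor of early endoderm and midbrain, had the largest difference downward among the named genes, from 31.4 to 4.88 RPM, with 49.0 and 7.36 RPM in controls. A further 7 factors of this list were given in the 1 yr table only.

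Among Nodal and organizer genes 5 of 19 (26.3%) were at least 2-fold higher and 0 lower (median 0.15), against 4.08% and 15.2% of all genes. In the controls 4 were higher and 0 lower (median 0.18), against 3.08% and 5.35% of all genes. The LIM homeobox gene lhx1a, a Nodal target of the organizer, stood at 8.32 and 40.8 RPM in the exposed broods and at 6.08 and 33.5 RPM in controls. The mix-type homeobox gene sebox stood at 5.71 and 23.0 RPM and the head gene otx1a at 6.75 and 21.1 RPM. All 3 differed by nearly the same amount in the controls, at 2.46, 2.03 and 1.59 against 2.29, 2.01 and 1.64.

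The BMP list held 9 of 31 genes (29.0%) at least 2-fold higher and 2 (6.45%) lower (median 0.43), against 4.08% and 15.2% of all genes. In the controls 4 were higher, against 3.08% of all genes, and 0 lower, with a median of 0.19. Relative to all genes the list's exposed median was 0.75, and 0.49 among genes of at least 5 RPM. The ligand gene bmp4 stood at 4.54 and 16.5 RPM in the exposed broods and at 3.53 and 11.9 RPM in controls. For szl, which encodes the secreted BMP feedback protein Sizzled, the exposed broods held 5.08 and 23.4 RPM and the controls 6.24 and 11.0 RPM, so its brood difference was 2.21 after exposure and 0.82 in controls. In the FGF list 6 of 26 genes (23.1%) were higher and 0 lower, with a median of 0.34. In the controls this list had 4 higher and 0 lower, with a median of 0.28. Its higher members are mostly feedback genes of the pathway, such as the phosphatase gene dusp6 (30.9 and 95.7 RPM, with 31.0 and 66.1 RPM in controls) and spry1 (3.38 and 10.4 RPM, with 2.02 and 8.94 RPM in controls).

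In the Wnt list 7 of 37 genes (18.9%) were at least 2-fold higher and 2 (5.41%) lower (median 0.33), against 4.08% and 15.2% of all genes. The higher ones were led by sp5l and its relative sp5a, which stood at 5.80 and 17.7 RPM. The Frizzled receptor gene fzd3b was lower, at 8.30 and 3.70 RPM. The Wnt median relative to all genes was 0.65, and 0.31 among genes of at least 5 RPM. In the controls 4 Wnt genes were higher and 0 lower (median 0.04), against 3.08% and 5.35% of all genes. Of 40 planar polarity and gastrulation movement genes 8 (20%) were higher and 1 (2.5%) lower (median 0.20). In the controls 8 were higher and 0 lower (median 0.09). Adhesion and matrix genes led the higher ones. The protocadherin gene pcdh8 stood at 2.45 and 19.7 RPM after exposure and the cadherin gene cdh6 at 3.87 and 30.8 RPM. The ephrin gene efnb2a stood at 3.06 and 24.1 RPM and the laminin gene lamb1a at 7.03 and 50.4 RPM. The control differences of these 4 were 2.75, 2.91, 2.81 and 2.57, against 3.01, 2.99, 2.98 and 2.84 after exposure.

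Notch genes spread widely in both directions, with 6 of 19 (31.6%) at least 2-fold higher and 5 (26.3%) lower, against 4.08% and 15.2% of all genes. Their median was -0.26, which relative to all genes is 0.07, and -0.14 among genes of at least 5 RPM. In the controls 4 were higher and 5 lower (median -0.44), against 3.08% and 5.35% of all genes. Beside dld, the hairy-related gene hes6 stood at 17.0 and 89.7 RPM in the exposed broods and at 11.8 and 60.1 RPM in controls. In the ectoderm and neural list 6 of 21 genes (28.6%) were higher and 1 (4.76%) lower (median 0.29). The controls had 4 higher and 1 lower (median 0.16). The SoxB1 gene sox3 stood at 143 and 343 RPM, with 124 and 316 RPM in controls, and the zinc finger gene zic2a at 10.5 and 29.6 RPM, with 11.6 and 19.3 RPM in controls.

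A set of segmentation and posterior genes was given in the 1 yr table alone. Of 331 genes listed only there, 28 reached 5 RPM in the exposed brood, whereas none of the 1092 genes listed only at 0 yr did. The highest of the latter in the exposed brood was the oocyte factor gene figla at 3.74 RPM, though it stood at 7.21 RPM in its control. The neural and pluripotency gene sox2 led with 37.0 RPM in the exposed 1 yr brood and 17.8 RPM in its control. The segmentation clock genes her7 and her1 stood at 26.6 and 25.2 RPM, against 21.2 and 16.8 RPM in controls, and the Notch ligand gene dlc at 25.4 against 18.0 RPM. The retinoic acid synthesis gene aldh1a2 stood at 14.7 against 8.29 RPM, the posterior homeobox gene cdx4 at 13.2 against 6.30 RPM, and the paraxial mesoderm genes mespab and msgn1 at 10.2 against 5.6 RPM and 9.17 against 4.60 RPM. Their 0 yr levels are not used here, so no brood difference can be given.

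Epithelial and yolk layer genes held the highest shares of 2-fold calls upward among the lists with at least 20 measured genes. Over all genes 4.08% were higher and 15.2% lower in the exposed broods, and 3.08% and 5.35% in the controls. Of 41 enveloping layer genes 17 (41.5%) were at least 2-fold higher and 1 lower, with a median of 0.57, and the controls had 15 higher and 1 lower with a median of 0.76. The keratin gene krt5 stood at 208 and 731 RPM in the exposed broods and at 168 and 547 RPM in controls, and krt4 at 398 and 1005 RPM, with 377 and 811 RPM in controls. The keratin genes krt17, cyt1 and cyt1l stood at 2.51 and 24.3 RPM, 12.9 and 94.8 RPM, and 12.4 and 94.0 RPM. Their intervals on chromosome 19 overlap (5450844 to 5456086, 5445934 to 5464258 and 5439935 to 5452965), so reads may have been split among them and their separate values are uncertain. The claudin gene cldnd was the member that stood lower, at 118 and 44.3 RPM.

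Of 21 yolk syncytial layer and apolipoprotein genes 11 (52.4%) were at least 2-fold higher and 1 lower, with a median of 1.12, while the controls had 10 higher and 1 lower with a median of 0.98. The fetuin gene fetub, for a secreted plasma protein, stood at 1.84 and 37.5 RPM in the exposed broods and at 0.78 and 16.0 RPM in controls. The apolipoprotein gene apoc1l stood at 12.2 and 79.6 RPM, with 8.78 and 52.4 RPM in controls, and apoeb at 348 and 929 RPM. In contrast mxtx2, the homeobox gene that starts the yolk layer's programme early on, stood lower at 39.6 and 12.4 RPM, with 46.8 and 8.58 RPM in controls. The later regulator gene hnf4a stood at 44.6 and 74.9 RPM, under 2-fold apart.

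**Figure D2:**
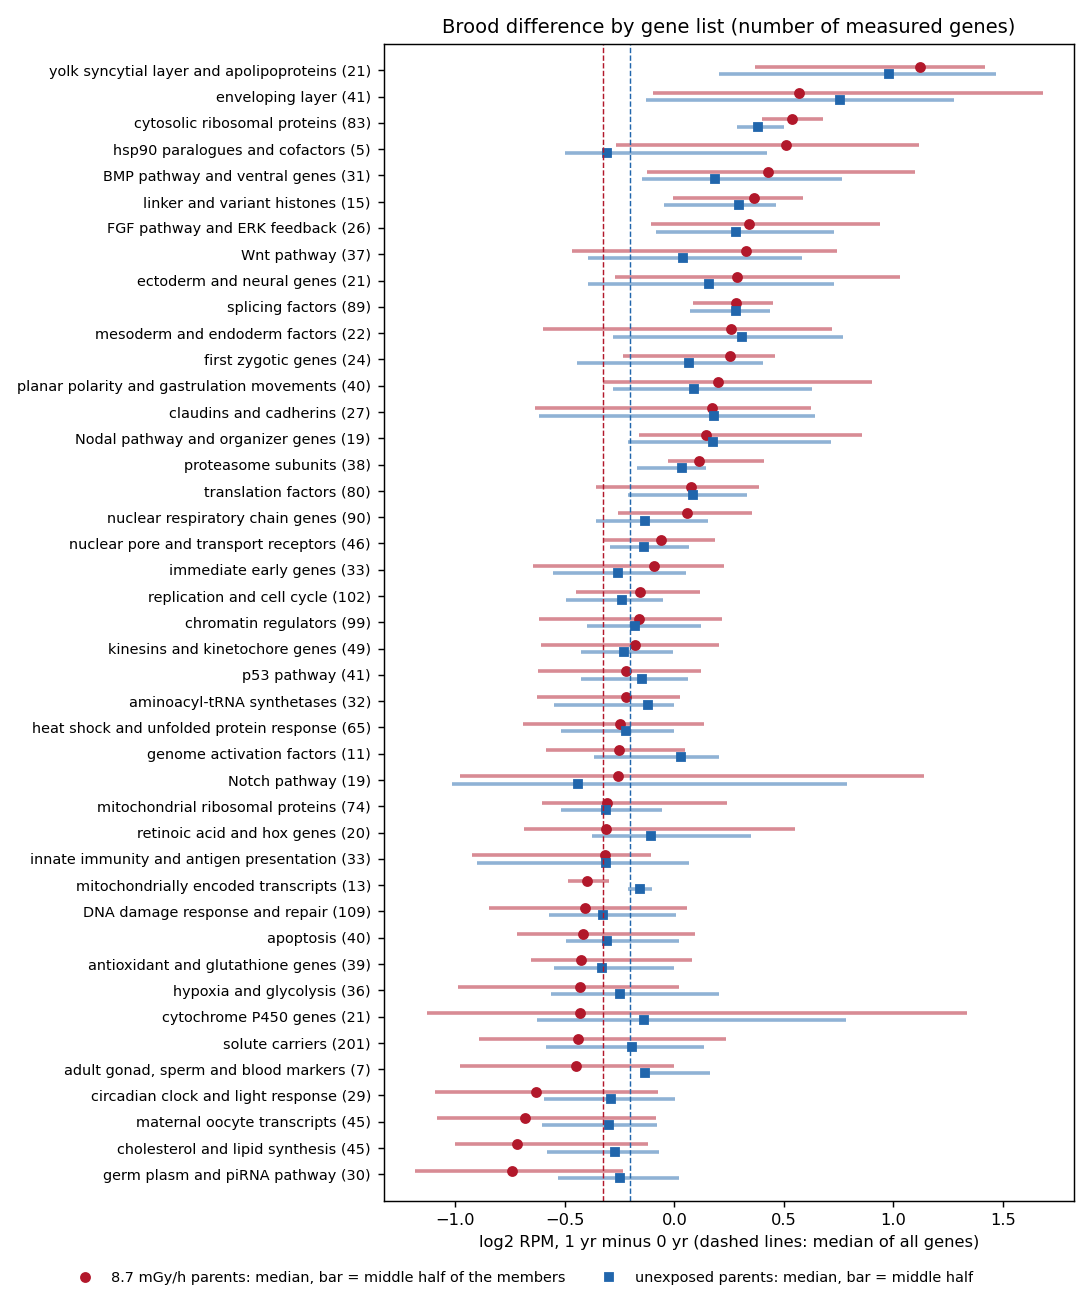
Median brood difference (log2 RPM at 1 yr minus 0 yr, horizontal axis) of each gene list with more than 1 measured gene, with red circles for the 8.7 mGy/h parents, blue squares for unexposed parents and bars over the middle 50% of the list's members, which is spread between genes and not an error. Dashed lines are the medians of all genes, -0.33 and -0.20, and the yolk layer and enveloping layer lists have the highest medians for both kinds of parents, while the germ plasm, lipid synthesis, maternal and clock lists have the lowest for the exposed ones.

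Maternal transcripts stood lower in the later brood. Of 45 oocyte genes 13 (28.9%) were at least 2-fold lower, against 15.2% of all genes, and 0 higher, with a median of -0.68. In the controls 8 were lower, against 5.35% of all genes, and 1 higher, with a median of -0.30. The oocyte growth factor gene bmp15 stood at 11.7 and 2.62 RPM in the exposed broods and at 11.9 and 3.36 RPM in controls. The cell cycle regulator gene btg4, which acts in clearing maternal RNA in the mouse, stood at 24.3 and 5.76 RPM, with 29.9 and 7.60 RPM in controls. The oocyte kinase gene wee2 stood at 159 and 55.9 RPM, with 174 and 86.6 RPM in controls. In these 3 genes the 0 yr levels of both kinds of parents lay close together and above both 1 yr levels. The 3 genes were named for their large differences, which favours that order, so the order lends no support. The egg coat genes did not share the lean, since zp2.1, zp2.3, zp3b and zp3a.2 had differences of 0.03, 0.02, -0.18 and -0.07.

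The genome activation factors did not move as a block. The homeobox gene nanog, which is supplied by the mother, stood at 1108 RPM at 0 yr and 294 RPM at 1 yr in the exposed broods and at 1138 and 442 RPM in controls. Its partner pou5f3 stood at 1055 and 1336 RPM, with 944 and 1173 RPM in controls. The SoxB1 gene sox19b, also maternal, stood at 84.3 and 53.9 RPM after exposure but at 70.08 and 119 RPM in controls. Only nanog of the 11 factors measured in this list passed 2-fold in the exposed broods, and the list's median was -0.25.

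Germ plasm and piRNA genes, which protect the germ line from mobile elements, had the lowest list median, -0.74. Of 30 measured, 9 (30%) were at least 2-fold lower, against 15.2% of all genes, and 0 higher. In the controls 2 were lower, against 5.35% of all genes, and 1 higher, with a median of -0.25. The piRNA pathway gene asz1 stood at 19.1 and 6.49 RPM in the exposed broods and at 17.9 and 12.01 RPM in controls. The gene buc, whose product Bucky ball assembles the germ plasm, stood at 62.1 and 24.1 RPM after exposure and at 44.3 and 58.7 RPM in controls, and the Tudor domain gene tdrd1 at 19.04 and 7.78 RPM. The germ cell helicase gene ddx4 lay on the other side, at 106 and 187 RPM, with 124 and 168 RPM in controls.

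**Figure D3:**
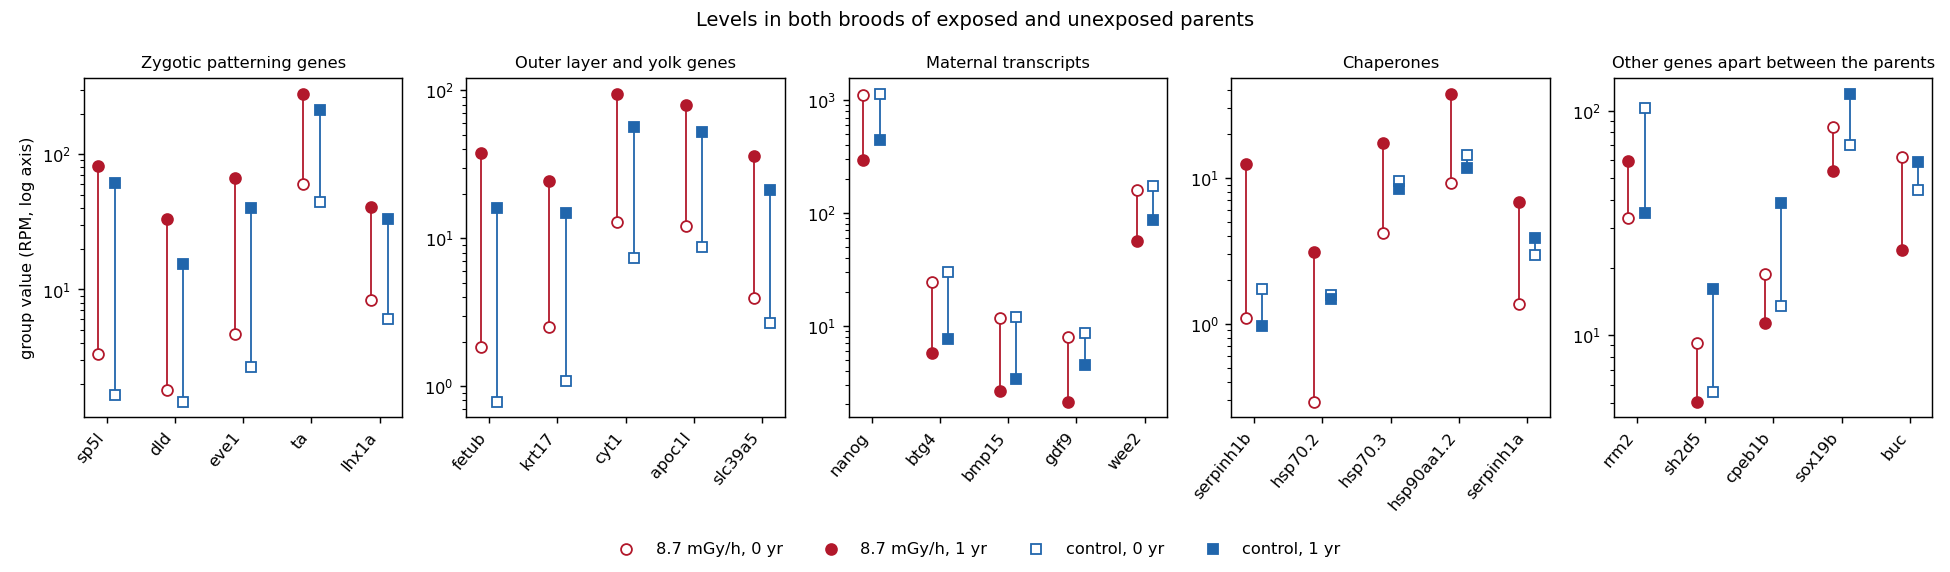
Level of 25 genes in each group (vertical log axes, RPM, authors' group values without error bars), with open symbols for 0 yr, filled symbols for 1 yr, red circles for 8.7 mGy/h parents and blue squares for unexposed parents, joined within each kind of parent. Patterning, outer layer and maternal genes have filled and open symbols in the same order for both kinds of parents, whereas hsp70.2, hsp70.3, hsp90aa1.2, serpinh1b, sh2d5, cpeb1b, sox19b, buc and the rrm2 locus on chromosome 20 have opposite orders.

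Clock and lipid synthesis genes also stood low against all genes. Of 29 clock and light response genes 9 (31.0%) were at least 2-fold lower, against 15.2% of all genes, and 0 higher in the exposed broods (median -0.63). In the controls 1 was lower (median -0.29), against 5.35% of all genes. The period gene per1b, a negative arm of the clock, stood at 34.97 and 14.6 RPM, with 29.8 and 18.2 RPM in controls, and the light-dependent repair gene cry-dash at 30.1 and 9.91 RPM, with 30.7 and 19.7 RPM in controls. The cholesterol and lipid synthesis list had 12 of 45 genes (26.7%) lower and 1 higher (median -0.72). In controls 2 of its genes were lower (median -0.27), and the same shares of all genes apply. The sterol enzyme gene nsdhl stood at 6.92 and 2.33 RPM, with 6.88 and 5.79 RPM in controls. The member that was higher, the sterol demethylase gene cyp51, stood at 4.89 and 12.7 RPM.

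List medians of radiation response genes stood near that of all genes. The ubiquitin ligase gene mdm2 stood at 54.0 and 45.7 RPM, a difference of -0.24 that becomes 0.00 when centred, and the cell cycle inhibitor gene cdkn1a at 3.53 and 2.60 RPM. Of 41 p53 pathway genes 3 (7.32%) were at least 2-fold higher and 1 (2.44%) lower (median -0.22), against 4.08% and 15.2% of all genes. The higher ones were gadd45ga, a stress and differentiation gene (1.94 and 7.59 RPM), the sestrin gene sesn3 (46.6 and 114 RPM) and the epithelial gene perp (34.9 and 72.1 RPM), and their control differences were 1.80, 1.12 and 0.73.

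DNA repair genes had 16 of 109 (14.7%) at least 2-fold lower and 2 higher in the exposed broods, against 15.2% of all genes lower, with a median of -0.41. In the controls 1 was lower and 1 higher, against 5.35% of all genes lower, with a median of -0.32. In the exposed minus control difference 5 of 109 were at least 2-fold lower and 0 higher, against 4.97% of all genes lower, with a median of -0.03. The Fanconi gene fancc stood at 8.89 and 3.87 RPM after exposure and at 8.37 and 8.71 RPM in controls. The nuclease gene ercc4 stood at 9.07 and 3.36 RPM, with 10.7 and 6.97 RPM in controls, and the histone gene h2afx, whose product marks strand breaks, at 24.9 and 10.8 RPM, with 30.2 and 16.7 RPM in controls. Apoptosis genes had 6 of 40 (15%) lower and 1 higher (median -0.42). Antioxidant genes had 3 of 39 (7.69%) lower and 2 higher (median -0.43). Over all genes 15.2% were lower and the median was -0.33. Among chromatin regulators 15 of 99 were lower, the same 15.2% as of all genes, and 0 higher, with a median 0.16 above that of all genes. Of these 99 regulators 3 were lower in the controls, against 5.35% of all genes. The lower ones after exposure included the Polycomb gene bmi1a at 34.1 and 10.5 RPM, with 33.9 and 23.1 RPM in controls.

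Among housekeeping lists the ribosomal proteins lay highest. Of 83 cytosolic ribosomal protein genes 82 lay above the all-gene median, with a list median of 0.54 in the exposed broods and 0.38 in the controls. At least 2-fold higher were 3 (3.61%), against 4.08% of all genes. Among them faua, for a ribosomal protein made as a fusion with a ubiquitin-like protein, stood at 21.6 and 44.1 RPM, with 19.6 and 33.4 RPM in controls. Splicing factors had a median of 0.28 in both, and proteasome subunits 0.11 and 0.04. The 13 transcripts encoded in mitochondrial DNA had a median of -0.40, with none past 2-fold, and -0.16 in the controls. Of 102 replication and cell cycle genes 10 (9.80%) were lower, against 15.2% of all genes, and 1 was higher. The median of this list was 0.17 above that of all genes. Its lower members included the origin recognition gene orc6 at 65.8 and 23.7 RPM, with 73.1 and 43.5 RPM in controls.

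The unexposed parents' broods, which share no library with the exposed ones, differed in much the same direction but by less. Of the 12158 genes, 375 (3.08%) were at least 2-fold higher and 651 (5.35%) at least 2-fold lower at 1 yr in the controls, with a median of -0.20 and an SD of 0.57. Calls in common were 277 upward, which is 55.8% of the exposed and 73.9% of the control calls, and 423 downward, which is 22.8% and 65.0%. Over all 12158 genes the control difference lay above 0 in 33.4%, so most genes leaned downward to begin with. It had the same sign as the exposed difference for 477 of the 496 genes higher after exposure and for 1702 of the 1852 lower ones. Its median was 1.08 in the former, where the exposed median was 1.43, and -0.69 in the latter, where the exposed median was -1.25. These genes were chosen by their exposed difference, which favours a larger exposed median, so the gap between these medians lends no support. Across genes, which are not independent replicates, the differences correlated with a Pearson r of 0.73 and a Spearman rho of 0.67, and with 0.79 and 0.75 over the 6428 genes of at least 10 RPM.

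**Figure D4:**
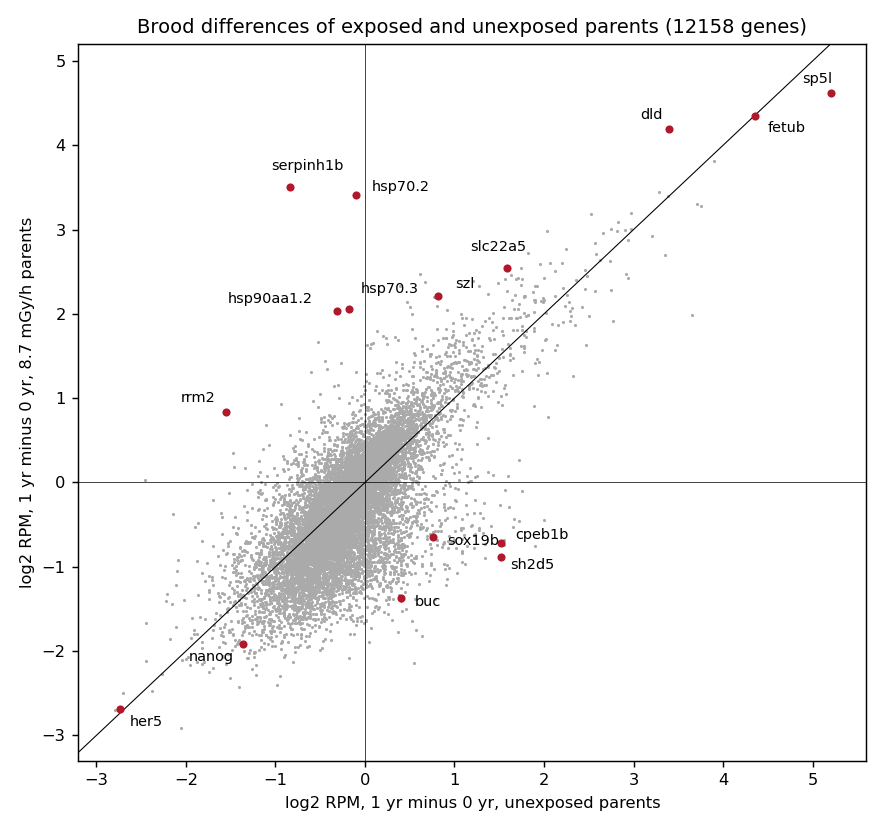
Brood difference of the 8.7 mGy/h parents (vertical axis) against that of unexposed parents (horizontal axis), both as log2 RPM at 1 yr minus 0 yr, 1 point per gene for 12158 genes and with the line of equal differences. Of the labelled developmental regulators her5 lies close to the line, dld and szl lie above it, and sp5l and sox19b below it. The genes serpinh1b, hsp70.2, hsp70.3 and hsp90aa1.2 also lie above the line, and sh2d5, cpeb1b and buc below it.

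Only 1 gene was called in opposite directions. It was pfkfb2b, for an enzyme that sets glycolytic flux, at 2.57 and 1.22 RPM after exposure and at 1.74 and 3.56 RPM in controls. The exposed difference minus the control difference passed 2-fold upward in 142 genes (1.17%) and downward in 604 genes (4.97%). This quantity equals the exposed minus control response at 1 yr minus that at 0 yr. Of the same genes, 0.494% lay at least 2-fold from their control at 0 yr and 5.29% at 1 yr.

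Several heat shock genes departed upward from the controls. Of the 65 heat shock and unfolded protein genes measured, 6 passed 2-fold upward in the exposed minus control difference and 2 downward. Over all genes 1.17% passed it upward and 4.97% downward. The 6 include hsp70.2, which lends no support for the reason given below, so the count of 6 overstates the upward share. Such departures were not particular to this list. Of 31 BMP genes 3 passed 2-fold upward and 1 downward. Of 30 germ plasm genes 6 passed it downward and 0 upward, and of 29 clock genes also 6 and 0. Of 45 lipid synthesis genes 6 passed it downward and 1 upward. The cytosolic chaperone gene hsp90aa1.2 stood at 9.23 RPM at 0 yr and 37.7 RPM at 1 yr in the exposed broods and at 14.4 and 11.7 RPM in controls, so the exposed 1 yr group alone was high. For hsp70.3 the values were 4.2 and 17.4 RPM against 9.53 and 8.44 RPM, and for its neighbour hsp70.2 they were 0.29 and 3.10 RPM against 1.57 and 1.47 RPM. The collagen chaperone genes serpinh1b and serpinh1a stood at 1.1 and 12.4 RPM and at 1.36 and 6.81 RPM, against 1.73 and 0.96 RPM and 2.96 and 3.87 RPM. Since hsp70.2 passed the filter on low values only through the exposed 1 yr group, where it is high, it lends no support. In the other 4 genes the exposed group was the lowest or next to lowest of the 4 groups at 0 yr and the highest at 1 yr. The authors' deposited table compares the exposed with the control 1 yr group. It lists hsp90aa1.2 as 3.23-fold higher with an FDR of 5.26e-06 and hsp70.3 as 2.06-fold higher with an FDR of 0.129. These genes were picked on values of the same libraries, so neither the FDR nor the order of the groups is independent support.

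The departure did not extend to the whole list, whose median was -0.25, and -0.22 in controls. In the exposed broods 7 of its genes (10.8%) were at least 2-fold higher and 8 (12.3%) lower, against 4.08% and 15.2% of all genes. The heat shock factor gene hsf1 had a difference of 0.14 and the constitutive chaperone genes hspa8 and hsp90ab1 0.43 and 0.51, with 0.13, 0.42 and 0.42 in controls. Chaperones of the endoplasmic reticulum stood lower, such as hspa5 at 256 and 110 RPM and pdia4 at 20.3 and 7.03 RPM, with control differences of -0.72 and -0.75. The small chaperone gene hspb1 was higher in both, at 534 and 1345 RPM after exposure and a control difference of 1.24. The hsp70 genes lie side by side on chromosome 3, and hsp90aa1.2 overlaps hsp90aa1.1 on chromosome 20, so the split of reads within each pair is uncertain.

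Other departures ran the opposite way, with the control brood higher at 1 yr and the exposed brood lower. The SH2 domain gene sh2d5 stood at 9.27 and 5.04 RPM after exposure and at 5.56 and 16.0 RPM in controls. The gene cpeb1b, whose product binds stored oocyte RNAs, stood at 18.7 and 11.4 RPM against 13.5 and 38.8 RPM. The peroxisomal transporter gene abcd3a, the mitochondrial fusion gene opa1, the actin-regulated coactivator gene mkl1b and luzp1 followed, with exposed minus control differences of -2.03, -1.95, -1.93 and -1.91. In each of these 6 genes the exposed group was above its control at 0 yr and below it at 1 yr. They were chosen as the largest differences in this direction, which favours that order, so the order lends no support. In the authors' deposited tables sh2d5 and cpeb1b had FDRs of 0.227 and 0.460 at 0 yr, and 0.000294 and 8.34e-08 at 1 yr. These FDRs rest on the same libraries that ranked both genes, and so are no independent support.

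The ribonucleotide reductase gene rrm2, which supplies deoxynucleotides for DNA synthesis, had the largest upward departure among the genes named by rule, 2.39, at the locus on chromosome 20 (29589590 to 29596547). That locus stood at 33.4 and 59.6 RPM after exposure and at 103 and 34.9 RPM in controls. A locus with the same symbol on chromosome 19 stood at 389 and 347 RPM, against 318 and 360 RPM. The sum of both was 423 and 407 RPM after exposure and 421 and 395 RPM in controls, and was thus nearly the same in all 4 groups. How reads were assigned between the loci is not given in the sources used here, so the departure at 1 locus is uncertain.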

How the data were processed

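Messenger RNA libraries of whole embryos were used from 4 groups, and the 53 mGy/h table was not used. The authors gave each group 1 value per gene as log2 RPM and as RPM, per the file headers. The authors' tables also hold a ratio, a signed fold change (a score) and an FDR, which is a deposited adjusted p-value. The submitters' processing notes name the build GRCz10 and the tools STAR 2.5.2b, Trim Galore 0.4.2, DESeq2 and FastQC 0.11.5, with no roles.

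The tables were joined on gene ID with Python 3.11.15, pandas 2.3.3 and numpy 2.4.6. A current symbol was found for 11606 of 12171 IDs, and symbols are printed as deposited. Genes with a geometric mean under 1 RPM over the 4 groups were left out, and log2 differences of at least 1 were called. Depth came from the steps in low values, whose products over a group's libraries were whole (tolerance 0.04) in 100% of the 150 values tried per group. Calls and depth recovery were tested on simulated data.

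The labels name no parents, clutch or day for a library. The planned tests needed values per library and were not possible. Members and lists were chosen with earlier results of these data known. Named genes had a geometric mean of at least 5 RPM and a symbol that is no clone or locus code. They were the 12 largest differences in each direction, the 6 largest exposed minus control differences in each direction, the 6 largest shared with the controls in each direction, the 3 largest in each of 44 lists, and mdm2, cdkn1a, nanog, pou5f3, sox19b, hnf4a and cyp26a1. Some genes that this rule names are not reported here. Other genes in the text were chosen after their values were seen. Alternatives changed the pseudocount, the filter, the centring and the fold.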

Additional observations from a re-analysis of the deposited data

How the results depend on the processing

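No paired analysis was possible because the deposited columns hold 1 value per group, and leaving out replicates was not run for the same reason. Without the filter on low values every count stayed within 1.5 times its value in the report. With log2(RPM + 1), genes lower at 1 yr numbered 1048 in the exposed and 315 in the control broods, and exposed minus control calls 53 upward and 277 downward. With a mean of at least 5 RPM, 257 genes were higher and 1059 lower after exposure, 194 higher and 296 lower in controls, and 31 and 281 passed in the exposed minus control difference. Centred on genes of at least 10 RPM, 768 were higher and 944 lower after exposure, and 371 lower in controls. In the controls that moved the share of calls that were higher from 36.5% to 57.5%. At 1.5-fold the exposed counts were 1108 and 4264, the control counts 820 and 2497, and the exposed minus control counts 647 and 1863. At 3-fold they were 196 and 283, 135 and 78, and 22 and 107. The median of the P450 list against all genes was -0.11 and reversed to 0.10 at 5 RPM or more, where 13 genes were left, and the cause was not tested. Of 109 named genes past 2-fold, 100 stayed past 2-fold with log2(RPM + 1) and 98 when centred. Neither change can reverse the sign of a difference that large, so their signs were not put to a test. Relative to all genes, 35 list medians at 5 RPM or more moved by under 0.1. Besides P450, BMP went from 0.75 to 0.49, Wnt from 0.65 to 0.31, Notch from 0.07 to -0.14, yolk layer from 1.45 to 1.23, hypoxia from -0.10 to -0.23, hsp90 from 0.84 to 0.42, and claudins and cadherins from 0.50 to 0.76. Counting error alone gives a standard error of 0.24 at 1 RPM, and the spread between libraries is unknown.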

Other observations

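Genes for transport and metabolism spread to both sides in the later exposed brood. Of 201 solute carrier genes 22 (10.9%) were at least 2-fold higher and 40 (19.9%) lower, against 4.08% and 15.2% of all genes. The zinc transporter gene slc39a5 stood at 3.92 RPM at 0 yr and 35.9 RPM at 1 yr, with 2.69 and 21.1 RPM in controls, and the carnitine transporter gene slc22a5 at 6.90 and 40.4 RPM, with 5.16 and 15.5 RPM in controls. The lactate transporter gene slc16a3 stood lower, at 282 and 93.6 RPM, with 343 and 157 RPM in controls. Of 21 P450 genes 7 (33.3%) were higher and 6 (28.6%) lower, against 4.08% and 15.2% of all genes. The higher ones included the retinoid desaturase gene cyp27c1 at 12.4 and 55.1 RPM, with 10.1 and 39.7 RPM in controls. The retinoic acid breakdown gene cyp26a1 stood at 22.1 and 19.3 RPM, a difference of -0.20 that becomes 0.04 when centred.

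In the hypoxia and glycolysis list 9 of 36 genes (25%) were lower and 4 (11.1%) higher (median -0.43), against 15.2% and 4.08% of all genes. Relative to all genes the median was -0.10, and -0.23 among genes of at least 5 RPM. The hexokinase genes parted, with hk2 at 16.9 and 5.67 RPM and hk1 at 1.47 and 7.04 RPM, and their control differences were -1.11 and 1.88. The triose phosphate isomerase gene tpi1a stood at 12.2 and 4.45 RPM after exposure and at 9.83 and 10.7 RPM in controls. Among NF-kappaB genes relb stood at 8.35 and 2.59 RPM and nfkb1 at 9.97 and 3.86 RPM, with control differences of -1.06 and -1.06. The variant histone gene h2afy, for macroH2A, stood at 5.71 and 23.2 RPM, with 4.09 and 15.15 RPM in controls.

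Chromosome 4 stood apart by its median. Its 676 genes had a median brood difference of -0.02 after exposure, against -0.34 for the 11482 genes elsewhere, and -0.10 against -0.21 in the controls. Between 20 and 80 Mb its medians per 20 Mb were 0.07, 0.09 and 0.07, and 243 genes in the 20 Mb before that had a median of -0.18. Between 40 and 60 Mb 0 of 155 genes were at least 2-fold higher and 16 (10.3%) lower, and between 20 and 40 Mb 3 of 149 were higher and 17 (11.4%) lower, against 4.13% higher and 15.6% lower off chromosome 4.

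Genes with long genomic spans stood lower. The median span was 17.5 kb for all genes, 17.4 kb for those at least 2-fold higher and 24.0 kb for those at least 2-fold lower. The median difference was -0.09 in the 1103 genes of 2 to 5 kb and -0.52 in the 2352 genes of 50 kb or more, whose median levels were 9.90 and 9.02 RPM.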
